A study of Mus musculus with 4 samples.

Results

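The MYC, MAX and MXD network was examined through the 9 genes Myc, Mycn, Max, Mxd1, Mxd3, Mxd4, Mxi1, Mnt and Mlx, which were found by their symbols among the 30041 genes that each of the 4 deposited RNA-seq files lists. They are listed for their known roles, by symbol, and the rule uses no score, but they were chosen with earlier results of these data known. Splenic B cells of C57BL/6 mice were purified by negative depletion and cultured with lipopolysaccharide (LPS), a ligand of Toll-like receptor 4, for 72 h before poly(A) RNA was sequenced. The 2 control samples came from mice with 1 floxed and 1 deleted allele of Nfkbiz (Nfkbiz fl/Δ) and no Cre. The 2 cKO samples came from mice with the same Nfkbiz alleles and Mb1 cre/+, in which Cre is expressed from the Cd79a locus in B cells. Every sample therefore carried a deleted Nfkbiz allele, and the cKO samples also carried a Cd79a allele with Cre in it. Nfkbiz encodes IκB-ζ, a nuclear regulator of NF-κB target genes. The labels also give all 4 samples a passage of 8 to 12, a term for cultured lines that is not explained for these primary cells. They do not say that samples of a group came from separate mice, so the p-values measure the spread between these samples, which may be technical.

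MYC is a basic helix-loop-helix leucine zipper protein that binds DNA as a heterodimer with MAX, typically at the E-box CACGTG, and recruits acetyltransferases and elongation factors to genes for ribosome assembly, nucleotide synthesis, glycolysis and cell division. MXD1, MXI1, MXD3, MXD4 and MNT compete for MAX, bind the same element and repress through the SIN3 and HDAC complexes. MLX is a parallel partner that dimerizes with some of these repressors and with the glucose-sensing MondoA and ChREBP. Resting B cells hold little MYC, and LPS and other mitogens induce it as the cells grow and divide.

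Because MYC and its competitors share the E-box, the reference promoters of the members were searched for CACGTG, which reads the same on both strands and contains ACGTG, the core of the hypoxia response element. The RefSeq promoter table (GRCm38.p6, from 250 bases before to 50 after each start) held an entry for 8 of the 9 members, all but Myc. Max, Mxd4, Mnt and Mlx held the motif (4 of 8, 50.0%), and these letters were not in the windows of Mycn, Mxd1, Mxd3 and Mxi1. Of the 27025 genes with an entry, 2187 (8.09%) held it, as did 12.4% of those that also passed the filter on low scores described below. The 30 bases around each match are shown because they are the element that both arms of the network are known to bind. Each was placed on NCBIM37, the build of the files (mm9), by the 1 exact match of its promoter, and the capitals mark the E-box.
Max, chr12:78063221-78063250, minus strand: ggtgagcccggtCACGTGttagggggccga
Mxd4, chr5:34530561-34530590, minus strand: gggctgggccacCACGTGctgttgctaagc
Mnt, chr11:74644291-74644320, plus strand: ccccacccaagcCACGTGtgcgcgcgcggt
Mlx, chr11:100948552-100948581, plus strand: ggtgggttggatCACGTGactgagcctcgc
The first base of the motif lies 3 bases before the start in Max, 40 in Mlx, 123 in Mnt and 219 in Mxd4. A match describes the letters of the reference and is not a measurement of binding.

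The values are the deposited scores. Their unit is not stated. Products of exon length and score, for genes of low score, lie near whole multiples of a step (within 0.2 of a whole step for 74.0 to 81.3% of the low genes used), as values scaled by length and library size would. For each sample the step was searched from 0.03 to 0.12 for the best fit to these same genes. The shares are therefore no independent check of the step. If 1 step is 1 read, the libraries held about 17500000 to 19900000 reads. The scores summed to 604.2 to 637.6 per sample. Nfkbiz scored 0.0241 and 0.0226 in the control samples and 0.0127 and 0.0116 in the cKO samples, a log2 fold change of -0.94 (SE 0.0956, limma adjusted p = 0.0282), so the targeted gene was lower in both samples labelled cKO, and its adjusted p ranged from 0.00466 to 0.203 over the alternatives. The sum of 8 B cell markers was 2.44 to 2.71 in control and 2.30 to 2.31 in cKO, and the only one of them called was Cd79a, whose locus carries Cre in the cKO mice. The sum of 11 myeloid markers, of which 3 were tested and 0 called, was 0.172 to 0.177 in control and 0.210 to 0.212 in cKO. S100a9 was listed at 0 in every sample. Itgam made up most of the sum and was at a log2 fold change of 0.00. The lysozyme genes Lyz2 (2.62-fold, adjusted p = 0.0961, and 0.00124 with the replicate block) and Lyz1 (2.75-fold, adjusted p = 0.0986, and 0.00458 with the block) were higher in both cKO samples than in both control samples. For both genes the block gave the lowest adjusted p of the alternatives, and the highest was above 0.05. The sum of 8 T cell markers was 0.0349 to 0.0467 in control and 0.0684 to 0.0735 in cKO. Nearly all of it was Lck, the only 1 of them tested. Lck was 1.77-fold higher in cKO and not called (limma adjusted p = 0.0734, and 0.0228 with the replicate block). The sums of 6 plasma cell markers overlapped between the groups (0.466 to 0.554 and 0.469 to 0.534), with 5 tested and 0 called. Most of each sum came from Mzb1 and Xbp1. Single plasma cell markers differed in direction, with Sdc1 at a log2 fold change of 0.77 (limma adjusted p = 0.116, and 0.11 with the replicate block) and Igj at -0.86 (adjusted p = 0.13, and 0.0345 with the block). The paper reports lower Prdm1, which encodes Blimp-1, and lower CD138 in LPS-stimulated cKO cells. Prdm1 is not among these 6 markers. The sums of 6 NK cell markers (0.00118 to 0.00132 and 0.00190 to 0.00266) and 7 erythroid markers (0.00283 to 0.0138 and 0.00249 to 0.00286) were low. The NK cell sums were higher in both cKO samples, but no NK cell marker passed the filter, so none could be called. Of the erythroid markers, 2 were tested and 0 called. The part of these marker differences in the results below was not tested. In such bulk samples, fewer cells of a type and less RNA per cell cannot be told apart.

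None of the 7 members that reached a score of 0.005 in at least 1 sample was called higher or lower in cKO B cells (limma on all 9727 genes past that filter, Benjamini-Hochberg adjusted p under 0.05). Of all genes tested, 1.25% were called lower and 0.812% higher. The only member of the 7 with an unadjusted p under 0.05 was Mxi1, while 22.3% of all genes tested had one. The members' median log2 fold change was 0.04, beside -0.01 over all genes tested. Among the 7 tested members, the cKO scores lay above both control scores for 2 (Mxi1 and Mnt) and below both for 1 (Mxd3), while 28.1% and 30.1% of all tested genes showed these separations. Of the 2 members under the filter, Mycn was listed higher in both cKO samples and Mxd1 overlapped. All intervals of the tested members but that of Mxi1 include 0.

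Myc (Entrez 17869, chr15:61816946-61821929, plus strand), the activator of the network, scored 0.0572 and 0.0604 in the control samples and 0.0577 and 0.0607 in the cKO samples. The groups overlapped, and in each genotype replicate 2 was a little higher than replicate 1. The log2 fold change was 0.01 (SE 0.0832, adjusted p = 0.957), and its 95% interval, from -0.20 to 0.21, covers 0.873-fold to 1.16-fold. A change of the Myc transcript beyond these bounds was therefore not seen at 72 h, whereas a smaller one could not be resolved with 2 samples per group. By score, Myc stood at percentile 85.1 of the tested genes and was the highest of the 9 members in every sample.

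Mycn (Entrez 18109, chr12:12942902-12948720, minus strand), a closely related paralogue of Myc, was close to absent. It was listed at 0.00002 and 0 in control and at 0.00007 and 0.00006 in cKO, equal to about 1, 0, 5 and 3 reads if 1 step is 1 read. At so few reads no fold change is given, and Mycn was not tested. The activator sum of the network was thus Myc in all 4 samples.

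Max (Entrez 17187, chr12:78038256-78063235, minus strand), the obligate partner of MYC and a partner of the repressors, scored 0.0533 and 0.0506 in control and 0.0537 and 0.0532 in cKO. Control replicate 2 was the lowest sample and the groups overlapped. The log2 fold change was 0.04 (SE 0.0806, 95% interval -0.16 to 0.24, adjusted p = 0.781). On the score scale, which appears to be per length, Myc stood 1.12 times above Max in the mean of all samples, and above it in 4 of 4.

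Among the repressors, Mxd4 (Entrez 17122, chr5:34516536-34530369, minus strand), an MXD protein associated with cells that leave the cycle, had the highest score. It scored 0.0402 and 0.0476 in control and 0.0481 and 0.0448 in cKO. Control replicate 1 was the lowest sample, the other control sample lay between the cKO samples, and the log2 fold change was 0.09 (SE 0.110, 95% interval -0.19 to 0.36, adjusted p = 0.667). Without control replicate 1 the estimate turned to -0.04. Mxd4 alone made up 56.4 to 59.0% of the summed score of the 5 repressors in each sample.

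Mxd3 (Entrez 17121, chr13:55426529-55431119, minus strand), the MXD member expressed in S phase of proliferating cells, scored 0.0129 and 0.0127 in control and 0.0121 and 0.0125 in cKO. Both cKO samples were below both control samples by a narrow margin, and the log2 fold change was -0.06 (SE 0.0899, 95% interval -0.28 to 0.17, adjusted p = 0.737). Mnt (Entrez 17428, chr11:74644422-74659227, plus strand), the broadly expressed antagonist of MYC, scored 0.0109 and 0.0106 in control and 0.0118 and 0.0110 in cKO. Both cKO samples were above both control samples, again narrowly, with a log2 fold change of 0.09 (SE 0.0984, 95% interval -0.15 to 0.33, adjusted p = 0.615).

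Mxi1 (Entrez 17859, chr19:53384996-53450300, plus strand), which encodes the MYC antagonist also called MXD2, had the largest estimate of the 7. It scored 0.00407 and 0.00599 in control and 0.00924 and 0.00654 in cKO. Both cKO samples were above both control samples, but control replicate 2 and cKO replicate 2 were close, and the gap between the groups came mainly from the low control replicate 1 and the high cKO replicate 1. The log2 fold change was 0.64 (SE 0.252), 1.56-fold, with a 95% interval of 0.02 to 1.27 before adjustment and an adjusted p of 0.216. Without cKO replicate 1 it was 0.40, and without control replicate 1 it was 0.37. Over all alternatives it ranged from 0.37 to 0.92, with adjusted p from 0.0619 to 0.722, so the sign held and the threshold was not passed.

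Mxd1 (Entrez 17119, chr6:86597038-86619153, minus strand), the founding MXD protein, induced in many lineages on differentiation, stayed under the filter. It scored 0.00278 and 0.00382 in control and 0.00393 and 0.00370 in cKO. Control replicate 1 was the lowest sample and the groups overlapped. In the fit without a filter its log2 fold change was 0.22 (SE 0.20, adjusted p = 0.626).

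Mlx (Entrez 21428, chr11:100948591-100953521, plus strand), the centre of the parallel arm, scored 0.0186 and 0.0172 in control and 0.0203 and 0.0158 in cKO. The cKO samples held both the highest and the lowest score, and the log2 fold change was 0.00 (SE 0.138, 95% interval -0.34 to 0.34, adjusted p = 0.991). It moved between -0.18 and 0.18 when single samples were left out.

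**Figure D1:**
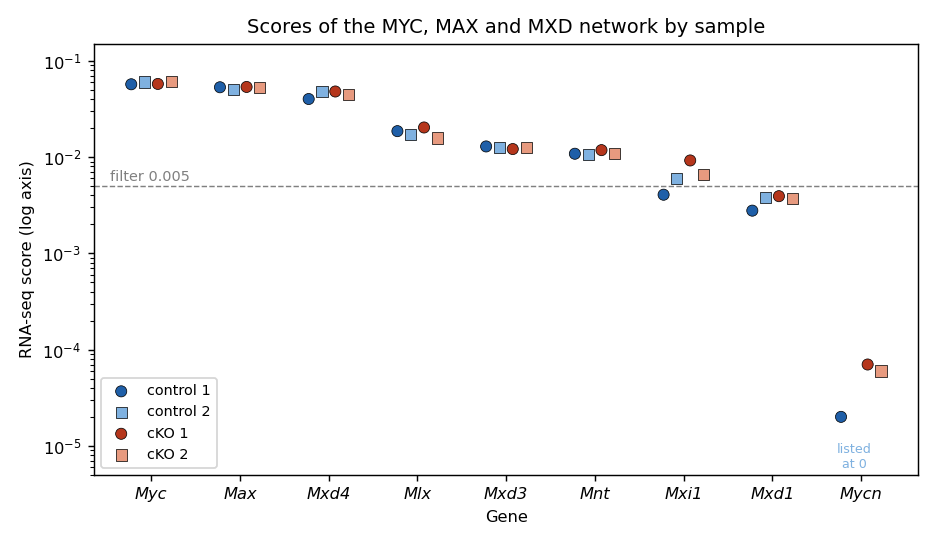
Deposited RNA-seq score of each member (vertical log axis, unit not stated) in the 4 samples, with control in blue, cKO in red, replicate 1 as circles and replicate 2 as squares. The dashed line is the filter of 0.005, Mxd1 and Mycn lie below it in every sample, and Mycn is listed at 0 in control replicate 2. The 9 genes keep 1 order in all 4 samples.

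The order of the members by score was the same in all 4 samples: Myc, Max, Mxd4, Mlx, Mxd3, Mnt, Mxi1, Mxd1 and Mycn. Neighbours near the top were close, with mean scores 1.12 times apart for Myc and Max and 1.17 times for Max and Mxd4. Larger steps separated Mxd4 from Mlx (2.51 times), Mnt from Mxi1 (1.71 times) and Mxi1 from Mxd1 (1.82 times). Mxd3 stood 1.14 times above Mnt, and Mlx 1.43 times above Mxd3. With no neighbours changing places between samples, the genotypes shared the same profile of the network, but the smallest of these steps are of the size of the spread seen within a group for Mxd4, and were not tested.

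**Figure D2:**
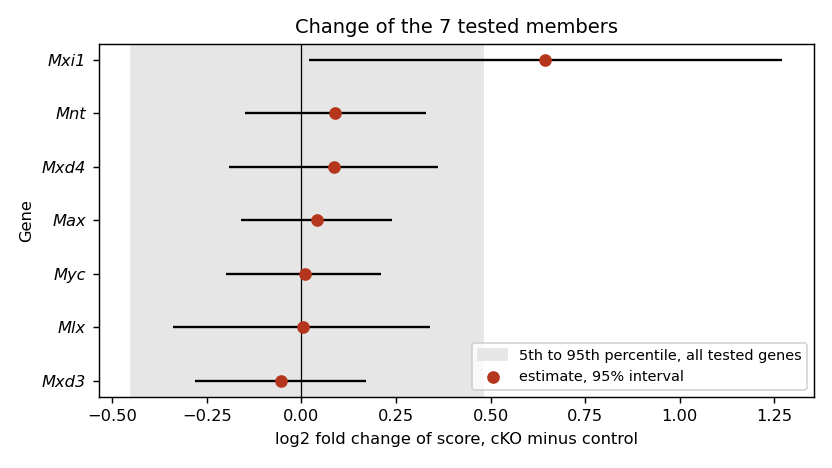
log2 fold change of the score, cKO minus control, for the 7 members past the filter, with bars for the 95% interval from limma (2 samples per group). The grey band spans the 5th to the 95th percentile of all 9727 tested genes, from -0.45 to 0.48. Only the estimate of Mxi1, at 0.64, lies outside the band, and 6 of the 7 intervals include 0.

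The balance of activators and repressors was compared within each sample. The summed score of Myc and Mycn was 0.0572 and 0.0604 in control and 0.0577 and 0.0607 in cKO. The summed score of Mxd1, Mxd3, Mxd4, Mxi1 and Mnt was 0.0708 and 0.0807 in control and 0.0853 and 0.0786 in cKO. Repressor transcripts thus exceeded activator transcripts on this scale in every sample. The ratio of activators to repressors was 0.808 and 0.748 in control and 0.677 and 0.773 in cKO. The ranges overlapped, since cKO replicate 2 lay between the control samples, and the ratio averaged 0.778 ± 0.0424 (SD, n = 2) in control and 0.725 ± 0.0676 in cKO. The difference of the mean log2 ratios was -0.10. Its size lay above the SD between the control samples (0.0787) and below that between the cKO samples (0.135). The difference was -0.01 without cKO replicate 1, -0.20 without cKO replicate 2, -0.05 without control replicate 1 and -0.16 without control replicate 2. No test of this ratio was made, and an exact permutation test of 2 against 2 samples could not go below a two-sided p of 0.333.

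Of the 5 repressors, Mxi1 was the one whose share of the repressor sum did not overlap between the groups. It contributed 5.75 and 7.42% in control and 10.8 and 8.32% in cKO, and this share was not tested. The share of Mxd4 was 56.8 and 59.0% in control and 56.4 and 57.1% in cKO, and the shares of Mxd1, Mxd3 and Mnt overlapped as well. Relative to Max, the activators stood at 1.07 and 1.19 in control and 1.08 and 1.14 in cKO. The repressors stood at 1.33 and 1.60 times Max in control and at 1.59 and 1.48 times in cKO. Activators and repressors together had 2.40 to 2.79 times the score of Max across the 4 samples, and both extremes were control samples.

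**Figure D3:**
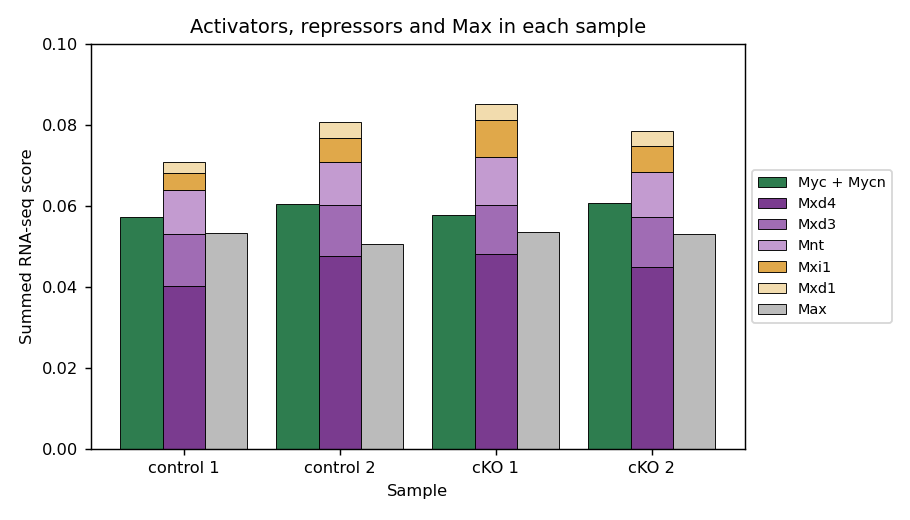
Summed score (vertical axis, from 0, unit not stated) in each of the 4 samples for the activators Myc and Mycn, for the 5 repressors stacked by gene, and for Max. The repressor bar is the tallest of the 3 in each sample, Mxd4 makes up 56.4 to 59.0% of it, and the activator bars reach 0.0572 to 0.0607.

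The genes whose pattern over the 4 samples lay nearest to that of Myc, by root mean square distance of centred log2 scores, were Rps24 (0.00554), Rpl7 (0.00564), Tnpo2 (0.00695), Rpl6 (0.00710) and Dazap2 (0.00904). Rps24, Rpl7 and Rpl6 encode ribosomal proteins, and Tnpo2 encodes a nuclear import receptor. Since Myc hardly varied, 833 genes lay within 0.05 of it.

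The remaining members of the family had low scores or were not called. Of 5 such genes, Mlxip and Mga passed the filter. Mlxip, which encodes MondoA and had the highest score of them, had a log2 fold change of -0.01 (SE 0.0869, adjusted p = 0.955), and Mga, a MAX-binding repressor of the variant PRC1 complex, one of 0.13 (SE 0.0947, adjusted p = 0.449). Mycl1, the third MYC paralogue, was listed at 0.0010 and 0.00136 in control and at 0.00194 and 0.00178 in cKO. Mycs was listed at 0 in all samples but cKO replicate 2. Txnip, a sensitive target of MondoA and MLX, scored 0.0459 and 0.0548 in control and 0.0494 and 0.0505 in cKO (log2 fold change -0.01, SE 0.108, adjusted p = 0.981), and was the only one of 4 targets of that arm past the filter.

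Cofactors of both arms showed no call. All 18 listed coactivators of MYC passed the filter, with 0 called by limma, unadjusted p under 0.05 for 3 of lower and 1 of higher score, and a median log2 fold change of 0.02. Over all genes tested, 11.5% had an unadjusted p under 0.05 with a lower and 10.8% with a higher score, so these counts of the cofactor lists and of the turnover list below are few genes on a common background. Cdk9, the kinase of the elongation factor P-TEFb and the highest-scoring of them, was at 0.0673 and 0.0744 in control and at 0.0784 and 0.0754 in cKO (log2 fold change 0.12, adjusted p = 0.458). The 3 of lower score were Dmap1 (-0.62, adjusted p = 0.167), Ruvbl1 (-0.35, adjusted p = 0.187) and Ruvbl2 (-0.29, adjusted p = 0.195), and the higher one was Paf1 (0.29, adjusted p = 0.216). Other listed genes of the TIP60 acetyltransferase complex, to which the first 3 belong, were nearer to 0 or positive, with Kat5, its catalytic subunit, at -0.07, Actl6a at -0.16, Trrap at 0.02 and Ep400 at 0.15. All 18 members of the SIN3 and HDAC corepressor list were tested too, with 0 called, unadjusted p under 0.05 for 2 of lower and 1 of higher score, and a median of -0.03. Rbbp4, a histone-binding subunit and the highest-scoring, was at 0.202 and 0.201 in control and 0.202 and 0.195 in cKO (log2 fold change -0.02, adjusted p = 0.881).

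Of 17 genes for the turnover of MYC protein, all were tested and 0 were called, with unadjusted p under 0.05 for 1 of lower and 1 of higher score and a median of -0.02. The higher one was Fbxw7, the substrate receptor of the ubiquitin ligase that marks phosphorylated MYC for degradation, which scored 0.00811 and 0.00993 in control and 0.0142 and 0.0136 in cKO. The groups were well apart, and the log2 fold change of 0.62 (SE 0.127, 95% interval 0.31 to 0.94) had an adjusted p of 0.0775, which ranged from 0.0211 to 0.382 over the alternatives. The lower one, Aurka, whose kinase stabilizes MYC family proteins, scored 0.0286 and 0.0258 in control and 0.0223 and 0.0225 in cKO (log2 fold change -0.28, adjusted p = 0.171). Other listed ubiquitin ligase genes differed in direction, with Skp2 at -0.35, Trim32 at -0.26, Btrc at -0.04, Huwe1 at 0.12 and Stub1 at 0.15. The deubiquitinase genes Usp28, Usp36 and Usp37 were at 0.02, -0.11 and 0.13. Set, an inhibitor of the phosphatase PP2A and the highest-scoring of this list, overlapped between the groups (log2 fold change -0.22, adjusted p = 0.343). MYC protein itself was not measured here.

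Genes known to be induced by MYC had lower scores in cKO for the most part, although few passed the test. Of 72 such genes in 6 groups, 71 were tested. By limma 3 were called lower (Ldha, Eno1 and Pkm2) and 0 higher, beside 1.25% and 0.812% of all genes tested. An unadjusted p under 0.05 was found for 19 lower and 0 higher, beside 11.5% and 10.8% of all genes tested. The median log2 fold change of the 71 was -0.21, beside -0.01 over all genes, and 64 of them were below 0, beside 51.8% of all genes tested. The groups did not overlap, with cKO lower, in 48 (67.6%, against 30.1% of all tested genes) and, with cKO higher, in 2 (2.82%, against 28.1%). The median was -0.13 without control replicate 1 and -0.14 without cKO replicate 1, and the number called lower was 0 without cKO replicate 1, 0 without cKO replicate 2 and 8 without control replicate 2. Genes of this kind were already known to be lower in these samples when the list was made, so these counts describe the list and are not independent evidence of its direction.

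The 3 genes called belong to the 12 of glucose and amino acid use, whose median was -0.35, with 10 of 12 below 0. Ldha, lactate dehydrogenase A, scored 0.375 and 0.357 in control and 0.213 and 0.237 in cKO, a log2 fold change of -0.70 (SE 0.0884, adjusted p = 0.0331). Eno1, the glycolytic enolase, scored 0.381 and 0.391 in control and 0.262 and 0.266 in cKO, a change of -0.55 (SE 0.0729, adjusted p = 0.0345). Pkm2, which encodes pyruvate kinase of muscle type and scored highest in its group, was at 0.506 and 0.519 in control and at 0.356 and 0.357 in cKO, a change of -0.52 (SE 0.0719, adjusted p = 0.0362). The cKO scores were 0.614 to 0.695 times those of control, and the groups were far apart for each of them. Over the alternatives their adjusted p ranged from 0.0126 to 0.203 for Ldha, from 0.0250 to 0.205 for Eno1 and from 0.0243 to 0.210 for Pkm2, and all were lost without cKO replicate 1 (up to 0.210), without cKO replicate 2 (up to 0.119), without the filter (0.203) and without the variance trend (0.0649 to 0.0798). Pkm2 was also lost under quantile normalization (0.0577). Without this group, the other 59 tested genes had a median of -0.19, with 0 called, and 54 were below 0.

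Of 2 promoter entries for Ldha, 1 held 2 E-boxes, whose first bases lie 145 and 48 bases before the start. They are shown because Ldha had the largest change among the MYC-induced genes called.
Ldha, chr7:54101017-54101046, plus strand: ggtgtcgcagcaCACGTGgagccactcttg
Ldha, chr7:54101114-54101143, plus strand: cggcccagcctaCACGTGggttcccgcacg
Of the 61 MYC-induced genes with a promoter entry, 17 (27.9%) held CACGTG in at least 1 entry, beside 8.09% of all genes with an entry. Of the genes past the filter, 7278 of 9727 (74.8%) had an entry and 12.4% of these held the motif, beside 28.3% of the MYC-induced genes past the filter, but too few had an entry for 12.4% to stand for all genes past the filter. Known MYC targets are in part recognized by this element, so the share is no independent finding.

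In the other groups of MYC-induced genes 0 were called by limma. The 16 genes of the nucleolus and ribosome assembly had a median of -0.22, with 3 lower at an unadjusted p under 0.05, and the highest-scoring, Npm1, which encodes the nucleolar chaperone nucleophosmin, was at 0.747 and 0.669 in control and at 0.464 and 0.563 in cKO (log2 fold change -0.47, SE 0.117, adjusted p = 0.114). The 8 translation genes had a median of -0.17, with 2 lower at an unadjusted p under 0.05, and Eif5a was at -0.18 (adjusted p = 0.306). The 17 genes for nucleotides, polyamines and 1-carbon units had a median of -0.19, with 3 lower at an unadjusted p under 0.05, and their highest-scoring gene Nme2, a nucleoside diphosphate kinase, was at -0.31 (adjusted p = 0.209). Odc1, the rate-limiting enzyme of polyamine synthesis and a classical MYC target, did not share this, with 0.0721 and 0.0707 in control and 0.0666 and 0.0768 in cKO, a log2 fold change of 0.00 (SE 0.0977, adjusted p = 0.997).

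The 8 mitochondrial genes had a median of -0.12, with 1 lower at an unadjusted p under 0.05, and the chaperonin gene Hspe1 was at -0.38 (adjusted p = 0.124). The 10 tested genes of cell cycle and chromatin had a median of -0.18, with 3 lower at an unadjusted p under 0.05. Ptma, which encodes prothymosin alpha and scored highest, was at -0.14 (adjusted p = 0.368). Ccnd2, the cyclin D2 that B cells use to enter the cycle, scored 0.0758 and 0.0593 in control and 0.0311 and 0.0490 in cKO (log2 fold change -0.78, SE 0.231, adjusted p = 0.146).

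Genes known to be repressed by MYC showed no shared direction. Of 9 genes, 5 were tested, with 0 called, 1 lower at an unadjusted p under 0.05, and a median of -0.04 that ranged from -0.33 to 0.14 when single samples were left out. The inhibitor of cyclin-dependent kinases Cdkn1b, the highest-scoring, overlapped between the groups (-0.04, adjusted p = 0.926). Cdkn1a, encoding p21, was at -0.60 (adjusted p = 0.175), and Ndrg1 at 0.56 (adjusted p = 0.231).

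**Figure D4:**
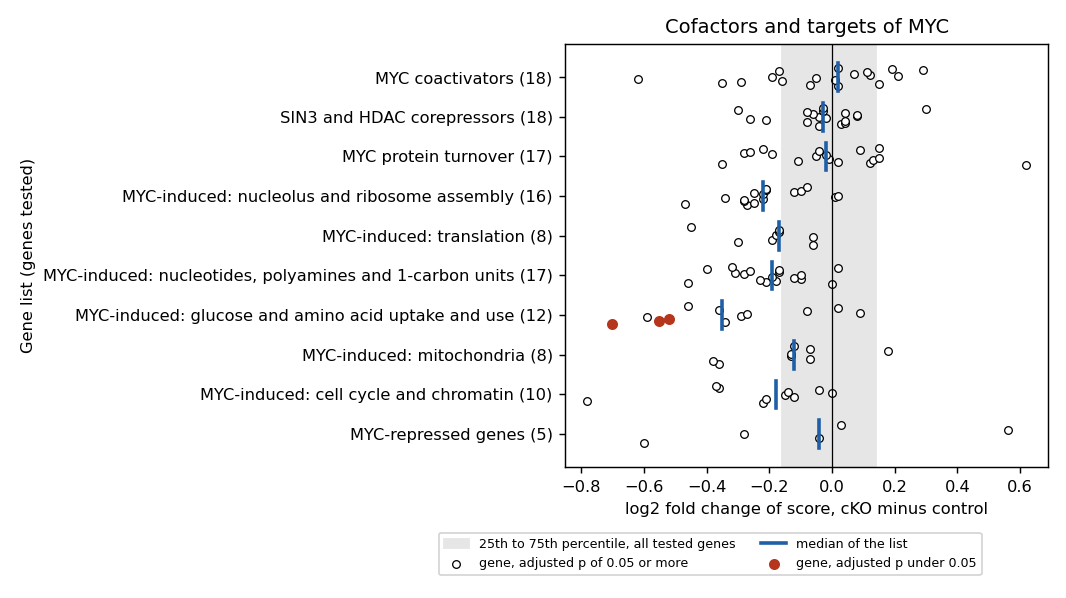
log2 fold change of the score, cKO minus control, for each tested gene of the cofactor and target lists (horizontal axis), with blue bars for the median of each list and the number of genes tested in brackets. The grey band is the interquartile range of all tested genes, from -0.16 to 0.14. The medians of 5 of the 6 MYC-induced groups lie below that band and that of the mitochondrial group, -0.12, within it, and the 3 filled points are Ldha, Eno1 and Pkm2.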

How the data were processed

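Per the labels and the study's methods, poly(A) libraries (NEBNext Ultra) were sequenced as 38-base reads and mapped to mm9 with TopHat, rRNA and tRNA reads were removed with BED Tools, and the processing notes also list CASAVA 1.8, Bowtie and SAMtools. The authors deposited 1 score per gene and sample, with no header and no stated unit. The step from mapped reads to this score is not given in the sources used here.

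Genes that reached 0.005 in 1 or more samples entered the test of cKO against control, 2 samples each. It used limma 3.58.1 (R 4.3.3; a linear model with empirical Bayes moderation and a variance trend) on log2(score + 0.0001). The p-values were adjusted over all genes tested by the Benjamini-Hochberg method, with a threshold of 0.05. The script was tested on simulated data. The added 0.0001 makes the fold changes of low genes too small. Read numbers assume that 1 step of score times exon length is 1 read. Alternatives were a pseudocount of 0.001, a filter above 0.05, no filter, equal medians, quantile normalization, no variance trend, a replicate block and leaving out each sample. Level comparisons between genes assume scores per length. Gene positions come from the GENCODE annotation of NCBIM37.

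The members and gene lists were chosen with earlier results of these data known. Named genes are all members, Nfkbiz, the 5 genes nearest to Myc in pattern and, per list, up to 3 called genes and the one with the highest score. Mga, Mycl1, Mycs, Dmap1, Ruvbl1, Ruvbl2, Paf1, Fbxw7, Aurka, Kat5, Actl6a, Trrap, Ep400, Odc1, Ccnd2, Cdkn1a, Ndrg1 and the single markers were named after their values were seen. The same holds for Skp2, Trim32, Btrc, Huwe1, Stub1, Usp28, Usp36 and Usp37, and Prdm1 is named from the paper. The score of 1 listed gene, Dnph1, was found by its Entrez identifier.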

Additional observations from a re-analysis of the deposited data

How the results depend on the processing

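Of the 7 tested members, 0 were called under every alternative run. Of 72 alternative values for them, 67 kept their direction, and 5 turned: Myc to -0.027 without cKO replicate 2 and -0.030 without control replicate 1 (range with single samples left out -0.030 to 0.048), Mxd4 to -0.036 without control replicate 1 (range to 0.208), and Mlx to -0.176 without cKO replicate 1 and -0.054 without control replicate 2 (range to 0.183). These estimates lie near 0, so that their sign depends on single samples. The filter settings, the fit without the variance trend and the replicate block cannot change a gene's fold change. Their agreement in direction was therefore fixed in advance. Of 43 alternative values for Nfkbiz, Ldha, Eno1 and Pkm2, 26 stayed past the threshold and 17 did not, and their direction held in all. For list medians, 121 of 132 alternative values moved by less than 1 SD between replicates. Without the variance trend or with the replicate block these medians could not move.

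Counts over all genes, on which the adjusted p-values rest, moved more. Instead of 122 genes called lower and 79 higher, there were 0 and 0 without the filter, 22 and 11 without the variance trend, and 35 higher with the filter above 0.05. Leaving out single samples gave 0 to 391 lower and 0 to 439 higher. MYC-induced genes called lower numbered 0 without the filter, 0 without the variance trend and 0 to 8 with single samples left out. The labels do not state whether samples with the same replicate number belong together. Deviations of same-numbered samples correlated at -0.145 (Spearman -0.291) over 9727 genes, which with 2 samples per group cannot settle it. The replicate block gave 180 genes lower and 177 higher, and the crossed pairing, added after seeing the data, 230 and 212. The cause of these shifts was not tested. The mean difference of log2 ratios of activators to repressors, -0.104, ranged from -0.199 to -0.009 with single samples left out. It ranged from -0.187 to -0.105 with other definitions of the ratio. Taken apart, the activators over Max gave -0.031. The repressors over Max gave 0.073, a positive value because the repressors are then the numerator. The unknown unit and 2 samples per group limit the precision, and low members such as Mycn cannot be compared.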
